A study of Mus musculus with 13 samples.

Results

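The collagen chains of sorted neonatal mouse heart cells are described here. They were taken as the protein-coding genes whose symbol reads Col, a number, the letter a and a number, which gave 44 genes among the 55487 gene IDs of the count table. Pacemaker cells (PC) of the sinoatrial node were set against right atrial cardiomyocytes (RACM). Both came from Hcn4-GFP/Myh6-mCherry neonates, which mark Hcn4-expressing cells green and Myh6-expressing muscle red, and the alignment names in the file header call the PC libraries red and green and the RACM libraries red. Each biological replicate pooled dissected tissue of 8 to 10 hearts before the sort, and there were 3 RNA libraries of each cell type, titled p0, p2 and p4. What the p number stands for is not given in the labels. It may be a replicate number or a postnatal day, in which case an SD over 3 libraries spans ages and the replicate block compares libraries of 1 age. Below, 3 values for a cell type are its p0, p2 and p4 libraries in this order. The series also holds 7 ATAC-seq samples, which were not analysed here.

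Collagens are secreted proteins of the extracellular matrix whose chains wind around each other into a helix. Fibrillar collagens such as types I, III and V build the tensile fibres of the heart's interstitium and are made mainly by fibroblasts. Type IV collagen forms the sheet-like network of the basement membrane, which in muscle surrounds every cardiomyocyte. Its genes lie head to head in pairs, Col4a1 with Col4a2, Col4a3 with Col4a4 and Col4a5 with Col4a6. Type VI forms beaded filaments beside the basement membrane, and the fibril-associated collagens (FACIT) coat the fibres.

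Library totals ran from 14141151 to 22290996 counts. PC libraries had the node genes Hcn4 (2544 to 2713 CPM, counts per 1000000 after TMM scaling) and Isl1 (53.0 to 77.1 CPM), against 36.3 to 65.7 CPM and 0 to 0.096 CPM in RACM libraries. The natriuretic peptide gene Nppa of working atrial muscle stood at 73.5 to 241 CPM in PC, against 1691 to 2403 CPM in RACM. Of its exon bases 61.5% are shared with another gene. Markers of fibroblasts, a list of 12 genes without any collagen, summed to 722, 657 and 1262 CPM in PC, against 1242, 2475 and 6661 CPM in RACM. Markers of macrophages summed to 10.8 to 49.4 CPM in PC and 173 to 781 CPM in RACM, with 8 of 10 lower in PC beside 3.57% of all genes, and those of cardiomyocytes were lowest in RACM p4 (61477 CPM, against 89985 to 103084 CPM in the other 5 libraries).

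Of the 44 chains, 37 had enough counts to be tested. Among them 3 were higher in PC, all of type IV (Col4a3, Col4a4 and Col4a6), and 3 were lower, the fibrillar Col24a1, the FACIT chain Col12a1 and the type IV chain Col4a1 (edgeR quasi-likelihood test, adjusted p below 0.05 over 18015 genes). The 6 called chains were 16.2% of those tested, beside 7.27% of all genes tested (3.57% lower and 3.69% higher). With the p number as a replicate block, 4 chains were higher and 13 lower, beside 11.6% of all genes called (5.6% lower and 5.96% higher). The log2 fold change, PC minus RACM, was below 0 for 29 of the 37 chains, beside 49.5% of all genes, with a median of -0.97 over the chains. DESeq2 called 11 chains, beside 12.8% of all genes, and limma-voom 5, beside 5.93%, while edgeR called 1 chain with PC p0 left out, 3 with PC p2 or RACM p2 left out and 12 with RACM p0 left out. The PC libraries lay all below the RACM libraries for 10 chains and all above them for 4, beside 13.4% and 13.5% of all genes. Col25a1 is among the 10 and Col22a1 among the 4. Col22a1 passed the filter on low counts through PC alone and Col25a1 through RACM alone. Such a filter favours libraries without overlap, and neither chain was called. In bulk libraries of sorted cells, fewer cells of a type and less RNA per cell cannot be told apart.

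**Figure D1:**
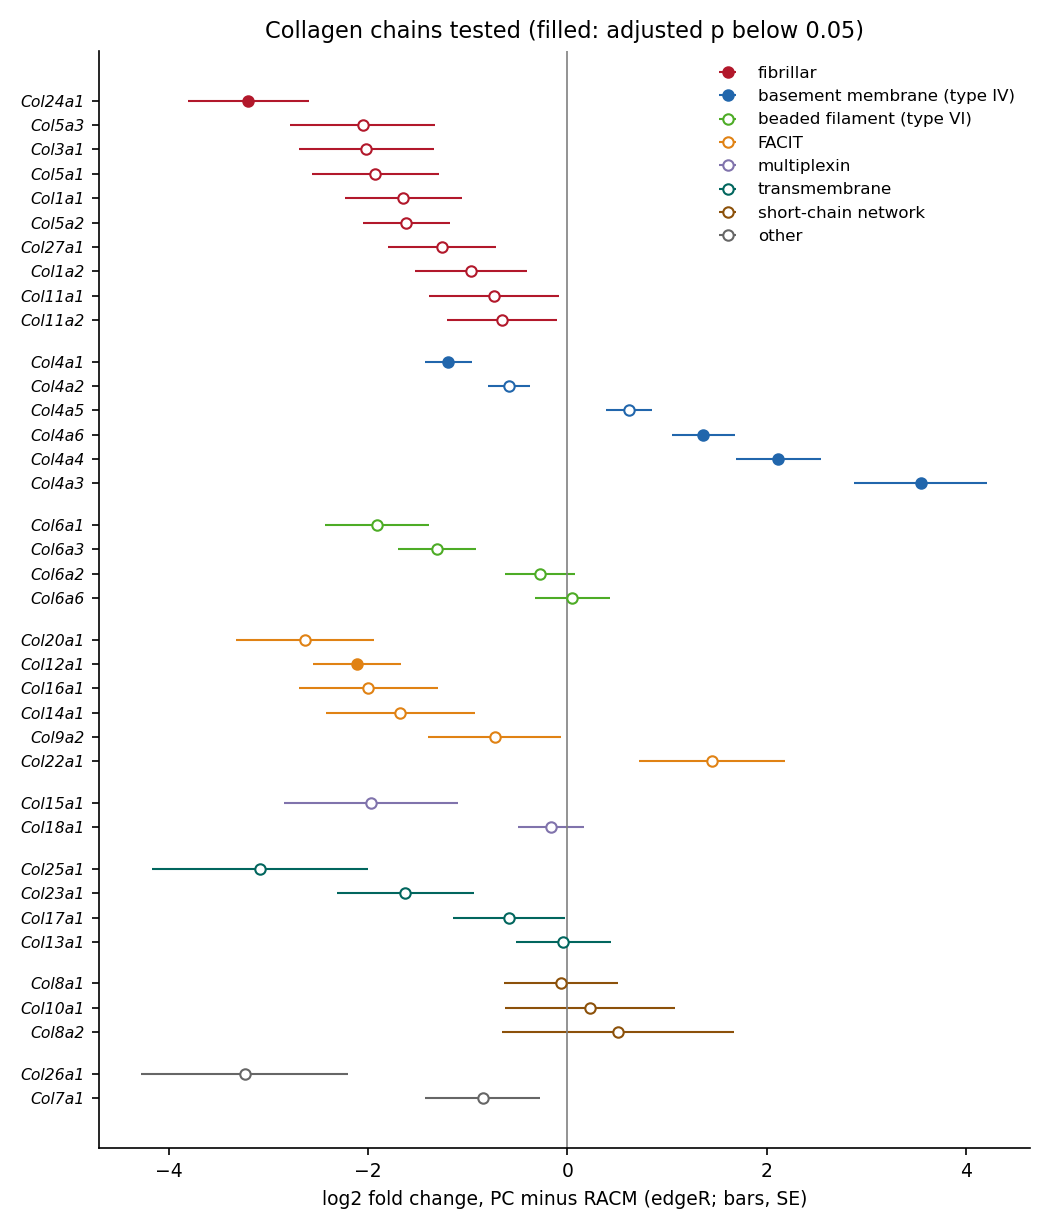
Log2 fold change of the 37 collagen chains tested, PC minus RACM, by class (points, edgeR estimate; bars, SE; filled points, adjusted p below 0.05). All 10 fibrillar chains tested lie left of 0, and type IV chains lie on both sides, from -1.20 for Col4a1 to 3.55 for Col4a3.

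Type IV chains, the basement membrane class, split by gene pair. The Col4a3 and Col4a4 pair and Col4a6 were higher in PC, Col4a1 was lower, and Col4a2 and Col4a5 did not pass the test. The RefSeq promoter windows (250 bases before to 50 after a start, build GRCm38.p6, the build of mm10) of the called chains and of their head-to-head partners are shown because the pairs share or face a promoter region. Such windows were matched for 35 of the 44 chains, but not for the called chains Col4a3 and Col12a1, which are therefore not shown. Capitals mark the GC box GGGCGG, the CCAAT box and the TATA box TATAAA on either strand.
Col4a1 promoter, chr8:11312777-11313076, minus strand: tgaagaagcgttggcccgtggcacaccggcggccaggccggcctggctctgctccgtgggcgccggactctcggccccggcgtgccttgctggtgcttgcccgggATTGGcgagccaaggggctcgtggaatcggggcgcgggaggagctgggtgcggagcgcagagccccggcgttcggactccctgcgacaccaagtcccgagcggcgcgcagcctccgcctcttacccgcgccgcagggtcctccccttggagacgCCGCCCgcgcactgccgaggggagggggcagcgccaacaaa
Col4a2 promoter, chr8:11312555-11312854, plus strand: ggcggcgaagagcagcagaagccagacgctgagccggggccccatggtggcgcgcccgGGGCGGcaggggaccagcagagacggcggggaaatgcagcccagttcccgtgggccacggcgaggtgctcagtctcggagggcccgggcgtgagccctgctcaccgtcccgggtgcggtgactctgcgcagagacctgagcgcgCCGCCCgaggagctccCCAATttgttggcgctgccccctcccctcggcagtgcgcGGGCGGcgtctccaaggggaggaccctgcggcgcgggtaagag
Col4a5 promoter, chrX:141475169-141475468, plus strand: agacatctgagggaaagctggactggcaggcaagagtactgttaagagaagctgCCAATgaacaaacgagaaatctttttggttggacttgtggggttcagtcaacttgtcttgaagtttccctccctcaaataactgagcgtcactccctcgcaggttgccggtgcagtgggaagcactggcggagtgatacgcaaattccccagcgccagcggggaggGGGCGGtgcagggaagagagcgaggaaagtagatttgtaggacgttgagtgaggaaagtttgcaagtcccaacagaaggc
Col4a6 promoter, chrX:141474027-141474326, minus strand: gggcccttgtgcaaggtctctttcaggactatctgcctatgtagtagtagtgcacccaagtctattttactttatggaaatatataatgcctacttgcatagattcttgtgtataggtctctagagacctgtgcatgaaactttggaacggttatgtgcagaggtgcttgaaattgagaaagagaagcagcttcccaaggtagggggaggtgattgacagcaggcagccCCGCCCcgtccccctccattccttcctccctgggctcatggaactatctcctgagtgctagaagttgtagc
Col4a4 promoter, chr1:82586800-82587099, minus strand: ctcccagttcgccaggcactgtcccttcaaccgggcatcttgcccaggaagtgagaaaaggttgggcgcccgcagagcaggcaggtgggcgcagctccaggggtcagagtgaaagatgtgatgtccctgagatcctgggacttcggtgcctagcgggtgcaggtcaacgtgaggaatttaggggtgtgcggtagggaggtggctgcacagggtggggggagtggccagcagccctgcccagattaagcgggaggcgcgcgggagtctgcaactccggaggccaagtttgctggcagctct
The start sites of Col4a1 and Col4a2 lie 21 bases apart, so that their windows share 78 bases, whereas those of Col4a5 and Col4a6 lie 1343 bases apart. GGGCGG occurs in the windows of Col4a1, Col4a2, Col4a5 and Col4a6 and in 35.7% of the 32851 promoters in the RefSeq table. CCAAT occurs in those of Col4a1, Col4a2 and Col4a5 and in 37.4% of all promoters. TATAAA is in none of the 5 windows and in 13.6% of all promoters.

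Col4a1 (ENSMUSG00000031502, mm10 chromosome 8 from 11198423 to 11312826, minus strand), a chain of the basement membrane network found in most tissues, stood at 192, 137 and 201 CPM in PC. In RACM it stood at 344, 336 and 536 CPM. All PC libraries lay below all RACM libraries. The log2 fold change was -1.20 ± 0.23 (SE; edgeR adjusted p = 0.0183), a difference that missed the threshold when PC p0 or PC p2 was left out (adjusted p = 0.0693 and 0.0661). Its partner Col4a2 (chromosome 8 from 11312805 to 11449287, plus strand), which assembles with it, stood at 303, 283 and 392 CPM in PC, against 420, 427 and 621 CPM in RACM. The PC libraries of Col4a2 also lay all below the RACM ones, but it did not pass (log2 fold change -0.59 ± 0.21, edgeR adjusted p = 0.14), and passed with the replicate block (adjusted p = 0.0192). Endothelial cells are known for high levels of both genes. Summed endothelial markers were at 79.0, 47.1 and 112 CPM in PC, and at 104, 110 and 166 CPM in RACM, and summed smooth muscle and pericyte markers at 676, 435 and 718 CPM in PC, against 321, 405 and 736 CPM in RACM. Of 9 endothelial markers tested, 1 (Tek) was lower in PC, and of 5 endocardial markers tested 1 (Nfatc1), beside 3.57% of all genes. The 10 smooth muscle and pericyte markers split, with Pdgfrb (log2 fold change -3.14), Notch3 (-2.74) and Abcc9 (-3.33) lower in PC and 3 higher. Of all genes 3.57% were lower and 3.69% higher. The part of these cells in the Col4a1 and Col4a2 values was not tested.

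Col4a6 (ENSMUSG00000031273, X chromosome from 141165403 to 141474076, minus strand), a chain known from the basement membrane of smooth muscle, had 81.5, 74.1 and 64.4 CPM in PC. RACM libraries had 39.8, 31.0 and 15.0 CPM, all below the lowest PC library. The log2 fold change was 1.36 ± 0.32 (edgeR adjusted p = 0.0351). It missed the threshold when a PC library or RACM p2 was left out (adjusted p from 0.0578 to 0.112). Of 10 smooth muscle and pericyte markers 3 were higher in PC alongside it, beside 3.69% of all genes, and 3 lower, beside 3.57%. The higher ones were Myh11 (26.8 CPM in PC, 4.17 CPM in RACM, edgeR adjusted p = 0.0192), Cnn1 (58.6 CPM in PC, 28.0 CPM in RACM, 0.00786) and Cspg4 of pericytes (37.3 CPM in PC, 15.5 CPM in RACM, 0.0171). The lower ones were Pdgfrb, Notch3 and Abcc9. With 1 library left out Myh11, Cspg4, Pdgfrb and Notch3 missed the threshold in some edgeR fits (adjusted p up to 0.0648, 0.0786, 0.0561 and 0.125). Acta2 did not pass, but all its PC libraries lay above the RACM libraries. Rgs5 and Kcnj8 did not pass either, and their PC libraries lay all below the RACM libraries. The part of smooth muscle cells and pericytes in the Col4a6 difference was not tested. The partner of Col4a6, Col4a5 (chromosome X from 141475385 to 141689234, plus strand) was the more abundant of the pair per kb, at 258, 240 and 194 CPM in PC, against 196, 148 and 106 CPM in RACM. PC p4 lay just below RACM p0, so the groups overlapped. Col4a5 did not pass (log2 fold change 0.62 ± 0.23, edgeR adjusted p = 0.156), and passed with the replicate block (0.65 ± 0.14, adjusted p = 0.0217).

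Col4a3 (ENSMUSG00000079465, chromosome 1 from 82586921 to 82722059, plus strand) and Col4a4 (82448423 to 82586849, minus strand) start 72 bases apart in the count table's annotation and encode chains best known from the kidney's filtration membrane, where they assemble with the product of Col4a5. Both were rare. Col4a3 had 3.06, 3.84 and 7.40 CPM in PC, against 0.207, 0.657 and 0.336 CPM in RACM, from 280 counts over the PC libraries and 21 over the RACM libraries. Col4a4 had 7.18, 6.72 and 6.03 CPM in PC and 1.45, 1.19 and 1.92 CPM in RACM. For both genes every PC library lay above every RACM library. The log2 fold changes were 3.55 ± 0.67 and 2.12 ± 0.43 (edgeR adjusted p = 0.015 and 0.0199). The call of Col4a3 was lost without RACM p4 (adjusted p = 0.0536). That of Col4a4 was lost without PC p0, RACM p0 or RACM p2 (adjusted p = 0.0724, 0.0502 and 0.101). Without both p4 libraries neither passed (adjusted p = 0.113 and 0.0555).

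**Figure D2:**
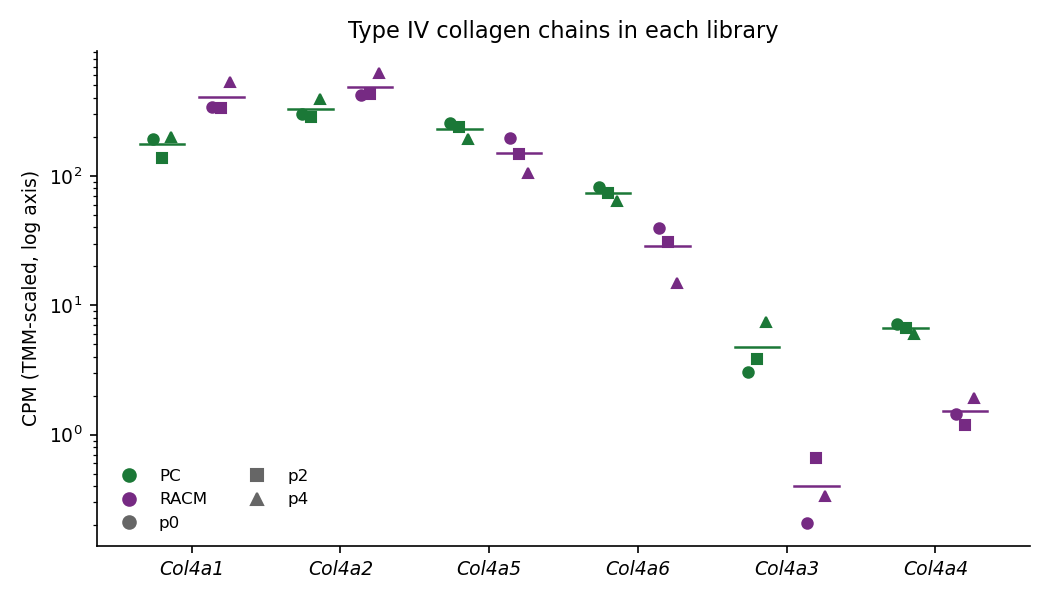
CPM of the 6 type IV chains in each library on a log axis (symbols, libraries; lines, means of 3; PC left of RACM for each gene). Col4a1 and Col4a2 lie lower in all PC libraries, and Col4a6, Col4a3 and Col4a4 higher, while Col4a5 overlaps between the cell types.

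Ratios between type IV chains within a library do not depend on scaling. Col4a5 over Col4a1, per kb of exon length, was 1.49, 1.95 and 1.07 in PC, and 0.634, 0.490 and 0.220 in RACM. Every PC library lay above every RACM library, with means of 1.51 ± 0.44 in PC and 0.448 ± 0.210 in RACM (SD, n = 3 each). Col4a6 over Col4a5 was 0.269 ± 0.010 in PC and 0.155 ± 0.032 in RACM, again without overlap. Col4a4 over Col4a3 did overlap, at 2.20, 1.64 and 0.766 in PC and 6.57, 1.71 and 5.37 in RACM, from low counts. An exact permutation test of 3 libraries against 3 cannot give a p under 0.1, so these ratios, and those between other chains below, are given as descriptions chosen after the values were seen.

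The fibrillar chains tested all leaned lower in PC, but few passed the main fit after adjustment over all genes. Of 11 chains, 10 were tested, all with a log2 fold change below 0 (median -1.63), and edgeR called Col24a1 alone (10% of them, beside 3.57% of all genes called lower). Without RACM p4 the median was -0.85 and 9 of the 10 were below 0, with Col11a1 at 0.29. In the main edgeR fit 7 of the 10 had an unadjusted p under 0.05, beside 21.1% of all genes. The PC libraries lay all below the RACM libraries for 3 of the 10, beside 13.4% of all genes. With the replicate block 6 of the 10 were lower, beside 5.6% of all genes. DESeq2 called Col24a1 and Col5a2, beside 12.8% of all genes called. Limma-voom called none, beside 5.93% (6 at an unadjusted p under 0.05, beside 21.9% of all genes). Col24a1 (ENSMUSG00000028197, chromosome 3 from 145292472 to 145552011, plus strand), a minor fibrillar chain known from bone and cornea, had 2.84, 5.70 and 4.10 CPM in PC. RACM had 11.3, 32.0 and 72.8 CPM, all above the highest PC library. Its log2 fold change was -3.20 ± 0.61 (edgeR adjusted p = 0.0163), and the call was lost without PC p0 or PC p4 (adjusted p = 0.0794 and 0.0547), without both p4 libraries (0.0604) and by limma-voom (0.0767). Its promoter window, shown as the only one of a called chain outside type IV for which a window was matched, holds none of the 3 motifs.
Col24a1 promoter, chr3:145292222-145292521, plus strand: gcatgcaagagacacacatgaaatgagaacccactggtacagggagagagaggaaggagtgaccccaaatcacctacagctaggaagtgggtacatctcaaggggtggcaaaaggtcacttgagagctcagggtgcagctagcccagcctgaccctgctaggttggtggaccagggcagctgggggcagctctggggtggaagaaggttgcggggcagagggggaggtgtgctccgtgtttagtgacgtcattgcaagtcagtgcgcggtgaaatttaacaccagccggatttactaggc

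Col3a1, the type III chain of compliant tissues (ENSMUSG00000026043, chromosome 1 from 45311538 to 45349706), was the most abundant chain in RACM. It stood at 219, 255 and 642 CPM in PC. In RACM it stood at 417, 1019 and 3094 CPM. RACM p0 lay below PC p4, so the groups overlapped, and Col3a1 did not pass (log2 fold change -2.02 ± 0.68, edgeR adjusted p = 0.117). It passed with the replicate block (-1.74 ± 0.24, adjusted p = 0.00471). Without RACM p4 the log2 fold change of Col3a1 was -0.95.

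The type I chains, which form the bulk of the heart's thick fibres, overlapped between the cell types as well. Col1a1 (chromosome 11 from 94936224 to 94953042) had 130, 189 and 355 CPM in PC and 228, 535 and 1349.7 CPM in RACM. Its log2 fold change was -1.65 ± 0.59 (edgeR adjusted p = 0.14, with the replicate block 0.00545). Col1a2 (chromosome 6 from 4504814 to 4541544) had 176, 241 and 424 CPM in PC and 184, 388 and 1069 CPM in RACM, and passed neither without the block nor with it (log2 fold change -0.97 ± 0.57, edgeR adjusted p = 0.388, with the block 0.0872). In both cell types p4 held the highest value of both chains, and without RACM p4 the log2 fold changes were -0.76 for Col1a1 and -0.03 for Col1a2.

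Type V chains join type I and III fibres and set their width. Col5a1 had 35.7, 35.7 and 108 CPM in PC and 77.2, 166 and 440 CPM in RACM, and its log2 fold change was -1.93 ± 0.64 (edgeR adjusted p = 0.112, with the block 0.00258; log2 fold change -1.02 without RACM p4). Col5a2 had 26.9, 19.5 and 38.9 CPM in PC and 44.2, 66.7 and 151 CPM in RACM, without overlap (log2 fold change -1.62 ± 0.43, edgeR adjusted p = 0.0589, with the block 0.00946, DESeq2 0.00138). Col5a3 was rare, at 0.817 ± 0.405 CPM in PC, against 3.42 ± 2.69 CPM in RACM (SD, n = 3 each), and did not pass. Col27a1, a cartilage-associated fibrillar chain, had 3.17, 9.37 and 9.66 CPM in PC and 7.65, 15.9 and 29.5 CPM in RACM, and did not pass (edgeR adjusted p = 0.225, with the block 0.0254). The type XI chains Col11a1 and Col11a2, minor partners of cartilage fibres, averaged 2.51 and 1.75 CPM in PC and 4.17 and 2.75 CPM in RACM and passed neither fit. The cartilage chain Col2a1 had 14 counts over the PC libraries and 15 over the RACM libraries and was not tested.

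In RACM the fibrillar chains and the summed fibroblast markers were ordered alike over the libraries, while in PC the summed markers were lowest in p2 (657 CPM) and the summed fibrillar chains lowest in p0 (597 CPM). In RACM all 10 tested fibrillar chains were highest in p4 and lowest in p0, and in PC 8 of 10 were highest in p4, beside 34.9% and 35.4% of all genes tested. Summed over the class, fibrillar CPM per kb in p4 was 2.68 times that of p0 in PC and 6.35 times that of p0 in RACM. Over the summed fibroblast markers, fibrillar CPM was 0.827, 1.16 and 1.26 in PC and 0.785, 0.901 and 0.934 in RACM, with overlap. Col3a1 over the same markers was 0.40 ± 0.103 in PC and 0.404 ± 0.065 in RACM (SD, n = 3 each). Col1a2 over them was 0.315 ± 0.064 in PC and 0.155 ± 0.006 in RACM, with every PC library above every RACM library. Postn was the largest member of the marker sum in each library, at 237, 195 and 517 CPM in PC and 618, 1373 and 4205 CPM in RACM. These ratios therefore weigh Postn most. Over the 12 markers the log2 fold change ran from -2.71 for Postn to -0.18 for Vcan. Of the 12 fibroblast markers, 3 were lower in PC (Dpt, Postn and Fbln1), beside 3.57% of all genes, and none higher. Postn and Fbln1 are among 5 of these markers that are also in the lists of collagen pathway genes below. With 1 library left out Dpt and Postn missed the threshold in some fits (adjusted p up to 0.135 and 0.147) and Fbln1 in none. The part of fibroblasts in the fibrillar differences was not tested.

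**Figure D3:**
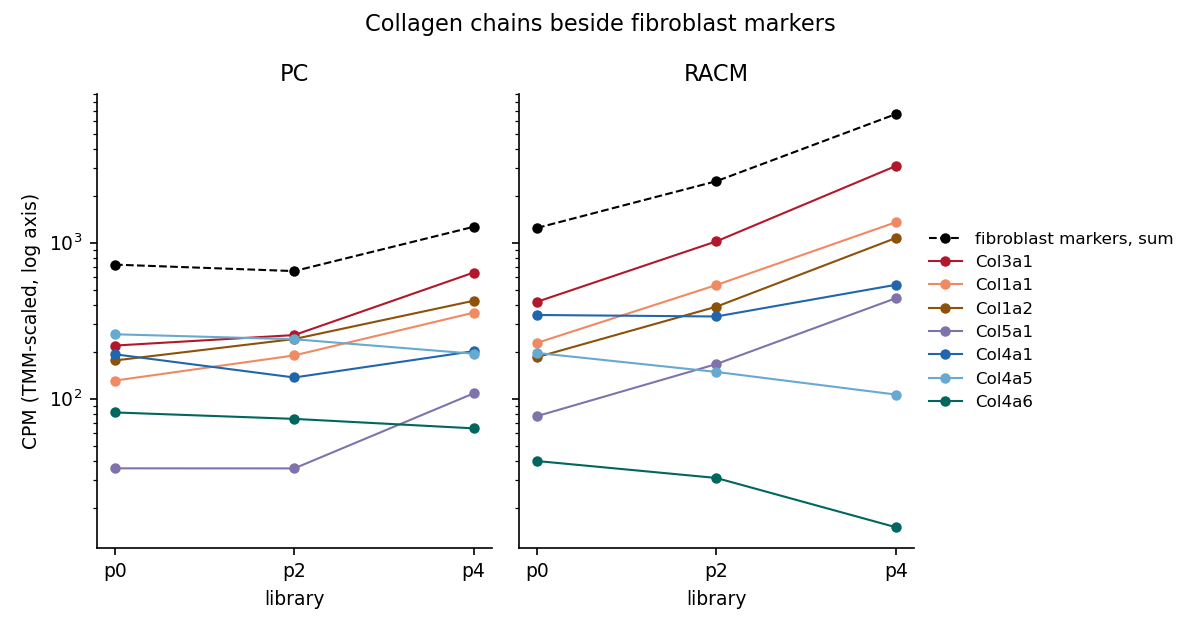
CPM of 7 collagen chains and of the summed fibroblast markers in PC (left) and RACM (right) libraries on a log axis, with lines only linking the values of 1 gene. In RACM the fibrillar chains and the markers are highest in p4, where Col4a5 and Col4a6 are lowest.

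Col4a5 and Col4a6 went the other way between libraries, being lowest in p4 and highest in p0 in both cell types. Col4a6 in RACM p4 was 0.377 times its level in p0, and Col4a5 0.541 times. Relative to 1000 CPM of cardiomyocyte markers, Col4a6 stood at 0.906, 0.719 and 0.703 CPM in PC, against 0.441, 0.337 and 0.244 CPM in RACM, without overlap. Col4a5 on that scale stood at 2.87, 2.33 and 2.12 CPM in PC, against 2.17, 1.61 and 1.73 CPM in RACM, where PC p4 lay just below RACM p0. Ttn was the largest member of the cardiomyocyte sum in each library, so this scale weighs Ttn most. It had 36624, 55993 and 44549 CPM in PC and 43642, 52947 and 32903 CPM in RACM.

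Among the FACIT chains, which sit on fibril surfaces, 6 of 9 were tested. Of these edgeR called Col12a1, beside 3.57% of all genes called lower. DESeq2 called Col12a1, Col16a1 and Col20a1, beside 12.8% of all genes called. Col12a1 (ENSMUSG00000032332, chromosome 9 from 79598991 to 79718831, minus strand), known from tendon and other tissues under load, had 15.6, 17.3 and 26.6 CPM in PC. In RACM it had 34.3, 88.3 and 135 CPM, all above the PC libraries. The log2 fold change was -2.11 ± 0.44 (edgeR adjusted p = 0.0237), and the call was lost without PC p0, PC p2 or RACM p2 (adjusted p = 0.102, 0.0799 and 0.0762). Col14a1 had 21.5, 20.3 and 55.3 CPM in PC and 20.2, 64.8 and 225 CPM in RACM, and Col16a1 2.78, 2.26 and 6.13 CPM in PC and 3.45, 12.8 and 28.5 CPM in RACM. Both overlapped between the groups and did not pass (edgeR adjusted p = 0.238 and 0.131), while Col16a1 passed with the block (0.0495) and by DESeq2 (0.0181). Without RACM p4 the log2 fold change of Col14a1 was -0.39, beside -1.68 with all libraries. Col14a1 had the widest spread between RACM libraries of the 19 chains at 10 CPM or more in either cell type, with p4 at 11.2 times p0. Col20a1 stood at 0.398 ± 0.212 CPM in PC, against 2.49 ± 0.73 CPM in RACM (edgeR adjusted p = 0.0531, DESeq2 0.00795), without overlap.

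None of the type VI chains, whose filaments tie cells to the interstitium, was called by edgeR (2 of 4 at an unadjusted p under 0.05, beside 21.1% of all genes). DESeq2 called Col6a3, beside 12.8% of all genes, and with the block 2 of the 4 were lower, beside 5.6%. Col6a1 (chromosome 10 from 76708792 to 76726168) had 13.7, 18.7 and 39.0 CPM in PC and 35.5, 83.3 and 150 CPM in RACM (log2 fold change -1.91 ± 0.53, edgeR adjusted p = 0.0635, with the block 0.00131). Col6a3 had 39.3, 45.2 and 66.8 CPM in PC and 58.8, 116 and 199.8 CPM in RACM (-1.31 ± 0.40, edgeR adjusted p = 0.0878, with the block 0.0107). Both overlapped by PC p4 and RACM p0. Col6a2, the third chain of the same assembly, had 95.3, 92.3 and 187 CPM in PC and 95.6, 137 and 220 CPM in RACM (-0.27 ± 0.35, edgeR adjusted p = 0.732). Col6a6 was also near equal on average, at 37.1 ± 7.4 CPM in PC, against 35.8 ± 19.0 CPM in RACM (SD, n = 3 each), and the sign of its log2 fold change (0.05) turned with upper-quartile scaling and with a filter of 5 CPM.

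Several chains that assemble with each other stood in different proportions in the cell types. Col6a2 over Col6a1, per kb, was 3.65, 2.59 and 2.52 in PC and 1.42, 0.867 and 0.769 in RACM. Col1a2 over Col1a1 was 0.711, 0.673 and 0.630 in PC and 0.428, 0.384 and 0.418 in RACM. Col4a2 over Col4a1 was 1.78, 2.34 and 2.19 in PC and 1.38, 1.43 and 1.31 in RACM. For all 3 pairs every PC library lay above every RACM library. Col5a2 over Col5a1 overlapped, at 0.494 ± 0.176 in PC and 0.391 ± 0.106 in RACM. Exon length here is the summed length of all annotated exons of a gene (12426 bases for Col1a2, 6563 for Col1a1), which can exceed the transcript in these cells and shifts a ratio equally in both cell types.

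**Figure D4:**
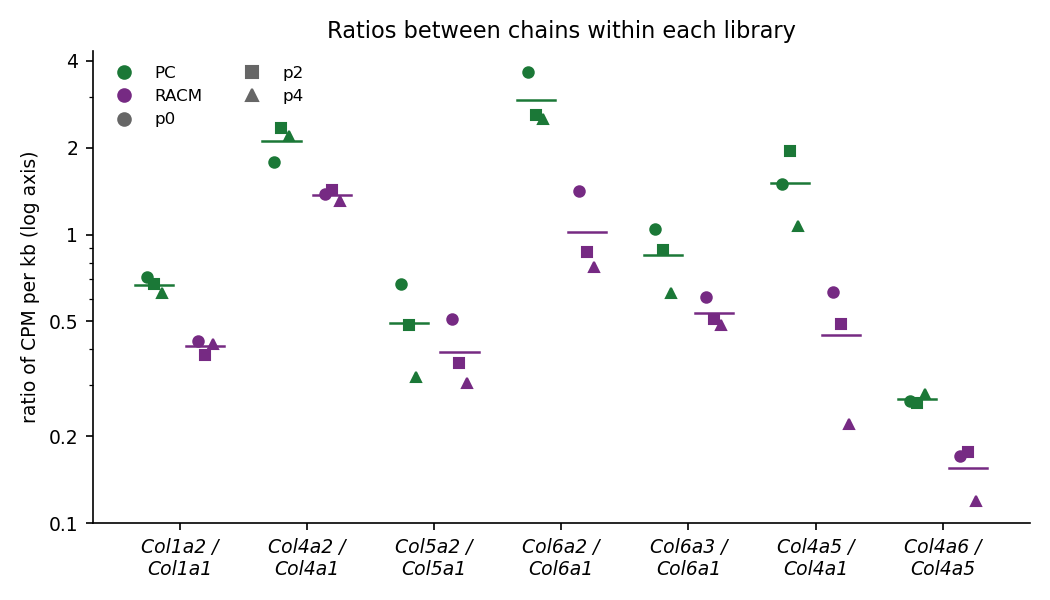
Ratios of CPM per kb between 2 chains in each library on a log axis (symbols, libraries; lines, means of 3; PC left of RACM). All the ratios plotted but Col5a2 over Col5a1 lie higher in every PC library than in every RACM library.

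The multiplexins Col15a1 and Col18a1, which border basement membranes, were called neither by edgeR (none at an unadjusted p under 0.05) nor by DESeq2 or limma-voom. Col15a1 had 6.51, 5.87 and 36.9 CPM in PC and 12.5, 53.2 and 128 CPM in RACM, a spread of 5.67 times between p4 and p0 in PC and 10.2 times in RACM. It passed with the block (log2 fold change -1.97 ± 0.38, adjusted p = 0.0158, without it 0.237), and its log2 fold change was -0.99 without RACM p4. Col18a1, whose product gives rise to endostatin, stood at 8.87 ± 2.86 CPM in PC, against 9.96 ± 2.06 CPM in RACM (SD, n = 3 each; edgeR adjusted p = 0.836). The transmembrane chain Col23a1 was at 2.65 ± 2.23 CPM in PC, against 8.16 ± 2.92 CPM in RACM (edgeR adjusted p = 0.215).

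The other 10 tested chains averaged below 6 CPM in both cell types and none passed in edgeR, with or without the block. They were Col9a2 and Col22a1 of the FACITs, the transmembrane chains Col13a1, Col17a1 and Col25a1, the short-chain network genes Col8a1, Col8a2 and Col10a1, the anchoring fibril gene Col7a1 and Col26a1. DESeq2 called Col26a1, beside 12.8% of all genes called. PC libraries lay all below RACM for Col25a1 and Col26a1, beside 13.4% of all genes, and all above for Col22a1, beside 13.5%. Of these, Col25a1 and Col22a1 passed the filter on low counts only through the cell type where they were higher. Besides Col2a1, 6 chains had too few counts for a test (Col6a4, Col6a5, Col9a1, Col9a3, Col19a1 and Col28a1). Col6a4 and Col19a1 had 0 counts in every PC library, which allows up to 0.053 CPM over the PC libraries (3 counts), and 3 and 7 counts over the RACM libraries.

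By level per kb, PC and RACM held the chains in different order, though neighbours in that order mostly did not differ beyond their spread. In PC Col4a2 came first, at 49.3 ± 8.7 CPM per kb, followed by Col3a1 (37.9 ± 23.9), Col4a5 (34.4 ± 4.9) and Col1a1 (34.3 ± 17.8). In RACM Col3a1 came first (154 ± 143), then Col1a1 (107 ± 88), Col4a2 (73.9 ± 17.2) and Col4a1 (54.3 ± 15.2), with Col4a5 in place 7. Within either cell type the intervals of 1 SD of these first 4 chains overlap, save that of Col4a2 in PC with that of Col4a5.

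Summed by class, type IV chains took on average the larger share of collagen CPM per kb in PC and fibrillar chains in RACM, but the libraries of the cell types overlapped. Fibrillar chains made up 29.6%, 37.0% and 48.0% in PC and 37.2%, 53.3% and 66.9% in RACM. The means were 38.2% ± 9.2 in PC and 52.5% ± 14.9 in RACM (SD, n = 3 each), a difference of -14.3 percentage points. Without RACM p4 it was -7.05 points and without RACM p0 -21.9 points. Type IV chains made up 55.8%, 48.1% and 34.6% in PC and 49.3%, 29.0% and 17.9% in RACM. The summed level of type IV was steadier than that of fibrillar chains, at 118 ± 9.2 CPM per kb in PC and 154 ± 25.6 in RACM, while fibrillar chains summed to 106 ± 57.8 in PC and 349 ± 302 in RACM. Type VI held 10.6% ± 0.9 in PC and 9.22% ± 1.21 in RACM. In each p number taken alone the fibrillar share was lower in PC than in RACM.

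**Figure D5:**
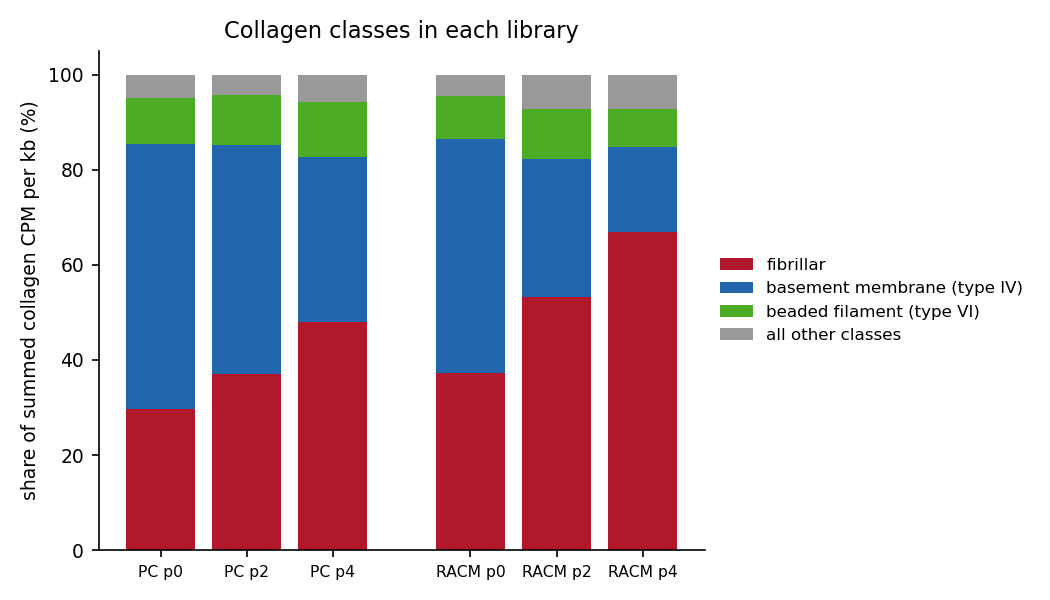
Share of summed collagen CPM per kb by class in each library (stacked bars; PC left of RACM). Fibrillar chains range from 29.6% to 48.0% in PC and from 37.2% to 66.9% in RACM, with p4 highest in both.

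Of 20 tested genes that fold and modify procollagen, edgeR called 1, beside 3.57% of all genes called lower, and 6 had an unadjusted p under 0.05, beside 21.1% of all genes. Plod1, a lysyl hydroxylase, was lower in PC (33.6 ± 4.9 CPM in PC, 59.6 ± 8.9 CPM in RACM; log2 fold change -0.83, edgeR adjusted p = 0.0345), which did not hold when any library but PC p4 was left out (adjusted p from 0.0617 to 0.123). With the block 2 were lower, beside 5.6% of all genes, and DESeq2 called 2 (P4ha2 and Plod1), beside 12.8%. The collagen chaperone gene Serpinh1 had 133, 125 and 188 CPM in PC and 169, 170 and 241 CPM in RACM and did not pass (edgeR adjusted p = 0.369). Of 13 tested genes that process procollagen or cross-link collagen, none was called by edgeR (7 at an unadjusted p under 0.05, beside 21.1% of all genes). DESeq2 called 2 (Adamts14 and Pxdn), beside 12.8%, and limma-voom none, and 5 were lower with the block, beside 5.6%.

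Receptors and binding partners moved in both directions. Of 9 tested collagen receptor genes, 3 were lower in PC and 1 higher, beside 3.57% and 3.69% of all genes, and with the block 4 were lower and 1 higher, beside 5.6% and 5.96%. Itga1, an integrin subunit that binds type IV collagen, had 37.2, 33.0 and 38.9 CPM in PC and 73.2, 104 and 143 CPM in RACM (log2 fold change -1.55 ± 0.24, edgeR adjusted p = 0.00684), without overlap. Itga10, another collagen-binding integrin subunit, went the other way, at 9.29, 6.72 and 11 CPM in PC, against 1.86, 1.55 and 2.45 CPM in RACM (2.20 ± 0.41, edgeR adjusted p = 0.0143). Of its exon bases 33.5% are shared with another gene, and Itga10 missed the threshold with PC p0 or RACM p2 left out (adjusted p = 0.0567 and 0.0751) and with both p4 libraries left out (0.0595). The others that fell were Mrc2, an endocytic collagen receptor (log2 fold change -2.32, edgeR adjusted p = 0.0272), and Lair1, an inhibitory receptor of leukocytes (-4.20, edgeR adjusted p = 0.0234). Both missed the threshold without PC p0, without RACM p2 and without RACM p4 (adjusted p up to 0.111 for Mrc2 and 0.0823 for Lair1). The part of macrophages, whose summed markers were also lower in PC, in the Lair1 difference was not tested.

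Of 11 tested basement membrane partners, 2 were higher in PC and 1 lower, beside 3.69% and 3.57% of all genes, with the same counts under the block. Nidogens link the laminin and type IV networks. Nid2 had 198, 165 and 187 CPM in PC and 80.2, 69.3 and 76.2 CPM in RACM (log2 fold change 1.29 ± 0.15, edgeR adjusted p = 0.00167), without overlap. Nid1 had 56.3, 32.2 and 99.5 CPM in PC and 127, 193 and 432 CPM in RACM (-2.0 ± 0.50, edgeR adjusted p = 0.0452), which did not hold with any library but PC p4 or RACM p0 left out (adjusted p from 0.0923 to 0.151). The laminin gene Lama3 was at 6.90 ± 2.57 CPM in PC, against 1.69 ± 0.46 CPM in RACM (edgeR adjusted p = 0.0391), a call lost when any library but PC p0 was left out (adjusted p at most 0.146). Lama2, the main laminin chain of muscle basement membranes, did not pass (log2 fold change 0.07 ± 0.15, edgeR adjusted p = 0.854).

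Of 12 fibril-associated proteins, 5 were lower in PC and 1 higher, beside 3.57% and 3.69% of all genes, and with the block 9 were lower, beside 5.6%. The riser, Fmod, encodes fibromodulin, a small proteoglycan that binds type I fibrils. It had 70.5, 70.6 and 78.6 CPM in PC and 3.72, 6.15 and 3.65 CPM in RACM (log2 fold change 4.02 ± 0.25, edgeR adjusted p = 5.18e-05). Fbln1, a matrix glycoprotein, fell (78.7 ± 7.5 CPM in PC, 203 ± 14.5 CPM in RACM, log2 fold change -1.37 ± 0.15, edgeR adjusted p = 0.00129). Its RACM libraries, at 187, 215 and 207 CPM, did not follow the summed fibroblast markers, a list that also holds Fbln1 and Postn. The matrix gene Thbs1 fell by 2.60 ± 0.41 on the log2 scale (edgeR adjusted p = 0.00714), the tenascin gene Tnxb by 2.60 (edgeR adjusted p = 0.0301) and the fibronectin gene Fn1 by 2.47 (edgeR adjusted p = 0.0272). Postn, which encodes periostin, averaged 316 ± 175 CPM in PC, against 2065 ± 1891 CPM in RACM (edgeR adjusted p = 0.0417), and missed the threshold when any library but RACM p0 was left out (adjusted p from 0.0507 to 0.147). The calls of Fn1 and Tnxb were lost without PC p0 or PC p2 (adjusted p from 0.0867 to 0.117), and that of Tnxb without RACM p2 (0.0644).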

How the data were processed

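Sorted cells' RNA was turned into cDNA libraries with an Ovation kit (RNA-Seq System V2) and sequenced in 100-base read pairs, per the labels' protocols. Read pairs were assigned to mm10 exons by the authors using featureCounts 2.0.1, with no strand option, and deposited as raw counts, per the file headers. The submitters' processing notes also list Trimmomatic and HISAT2 and give no version. Without strand, overlapping genes cannot be told apart, and 6 of the 44 chains share at least 1% of their exon bases with another gene (at most 6.07%). The table's deposited exon length served for values per kb.

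Symbols were matched for 55141 of 55487 gene IDs. Counts were scaled by TMM, filtered with filterByExpr (minimum count 10, minimum total 15) and tested with edgeR 4.0.16 in R 4.3.3 (glmQLFit and glmQLFTest, 2-sided, no covariate), with Benjamini-Hochberg adjustment over 18015 genes and a threshold of 0.05. SE values are of the log2 fold change. Members and lists were chosen with earlier results of these data known. Chains called or averaging at least 10 CPM in a cell type are given per library, and of each list the called genes of smallest adjusted p, up to 4 in a direction. Genes named outside this rule were chosen after their values were seen. Deviations from the cell type mean (log2 of CPM plus 1) correlated by 0.219, 0.306 and 0.281 between the PC and RACM libraries of p0, p2 and p4. Libraries of different p numbers were not compared, so these values cannot show that the p numbers pair the libraries. No label states this pairing. The replicate block assumes it, and the main fit does not. No libraries were near-identical (chi-square per degree of freedom at least 29.0). Alternatives were other scalings, filters and tools (DESeq2 1.42.0, limma-voom 3.58.1), the replicate block and libraries left out. The fits were tested on simulated data. The count floor covers counting error only.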

Additional observations from a re-analysis of the deposited data

How the results depend on the processing

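The number of collagen chains called depended on the processing. Against 6 chains (3 higher, 3 lower in PC) among 1309 genes, the replicate block gave 17 chains (13 lower) among 2082 genes, no filter on low counts gave 19 (16 lower) among 2339, and DESeq2 gave 11 (8 lower) among 2304. A filter of 5 CPM gave 7 chains (5 lower) among 1174 genes. Without both p4 libraries 734 genes were called, with 5 chains lower and 1 higher. With 1 library left out, calls ranged from 1 to 12 chains (0 to 10 lower, 1 to 2 higher), over 511 to 1338 genes. Leaving out PC p0 gave the fewest chains and leaving out RACM p0 the most. Without PC p0 the only chain called was Col4a3. Of 65 pathway genes tested, 14 were called, beside 7.27% of all genes, and 25 with the replicate block, beside 11.6%. No filter gave 26 pathway genes among 2339 genes called. Leaving 1 library out gave from 6 to 20 pathway genes, over 511 to 1338 genes called. The difference in fibrillar share was from -21.9 to -7.05 points with 1 library left out. The cause was not tested.

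Signs turned only for 8 chains that passed in none of these fits. Col6a6 had a log2 fold change of -0.0038 with upper-quartile scaling, -0.023 with the 5 CPM filter, and from -0.28 to 0.49 with 1 library left out. Col10a1 had -0.17 with the replicate block and by limma-voom and from -0.95 to 0.76 with 1 library left out, and Col8a2 -0.059, -0.67 and from -0.020 to 1.09. With 1 library left out Col8a1 ranged from -0.55 to 0.21, Col13a1 from -0.18 to 0.17, Col11a1 from -1.09 to 0.29, Col6a2 from -0.68 to 0.10 and Col18a1 from -0.46 to 0.018. RLE scaling changed no call of a chain.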

Other observations

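Chains that lie beside each other in the genome did not always share a level. Col6a4, Col6a5 and Col6a6 lie on chromosome 9 between 105687809 and 106096783. Col6a6 averaged 37.1 CPM in PC and 35.8 CPM in RACM, while Col6a5 had 6 counts over the PC libraries and 7 over the RACM libraries, and Col6a4 had 0 and 3. Col9a1 and Col19a1, which lie on chromosome 1 between 24177610 and 24587472, had 25 and 0 counts over the PC libraries and 1 and 7 over the RACM libraries. Of the 25 counts of Col9a1 in PC, 22 came from p0. Col3a1 and Col5a2, neighbours on chromosome 1 between 45311538 and 45503282, had log2 fold changes of -2.02 and -1.62, and p4 held the highest value of both in PC and in RACM.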
